A study of Drosophila melanogaster with 6 samples.

Results

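The regions described here are those enriched for the histone variant H2Av on the interior of 2L, the left arm of chromosome 2 of Drosophila melanogaster. A region was counted when its midpoint lay beyond the first 2 Mb of the arm and at or before 21011544 on FlyBase release 5, which leaves out 2 Mb at either end. The rule uses position alone. It gave 655 of the 5905 regions of a list made for the replicate set (the combined list), and 533 of 4403, 576 of 5016 and 570 of 4763 regions in the lists of replicates 1, 2 and 3. The interiors of X, 3L and 3R, trimmed in the same way, held 800, 779 and 953 combined regions and served as the background. At the borders, the first combined region inside began at 2009050 and was 2187 bp wide, and the last one outside was 1291 bp wide. At the other border the last region inside began at 20917431 and was 14705 bp wide, and the first outside was 3292 bp wide.

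H2Av replaces the common histone H2A in part of the nucleosomes of the fly. It does the work that other animals divide between H2A.Z, which marks nucleosomes near the starts of active genes, and H2A.X, which is phosphorylated at DNA breaks. It is also known for a part in the formation of heterochromatin. On 2L the telomere lies at the low-coordinate end and the pericentric heterochromatin at the high-coordinate end, so the interior is mostly euchromatin.

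All samples were whole embryos of the wild-type strain Oregon-R (Oregon-R-modENCODE), aged 14 to 16 h and fixed with 1.8% formaldehyde. The libraries, labelled H2AV 9751, were 3 ChIP samples and 3 inputs (chromatin that was not immunoprecipitated). Whole embryos mix many cell types, so a region can stand for all cells or for some of them. The labels do not say if replicates are separate collections of embryos. SDs and p-values over replicates therefore speak only for these libraries, whose spread may be technical.

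Read numbers are not part of the lists, and library depth is unknown. The authors' score of a region is used here only as its percentile in its own list, where 100 is the highest. Replicate 1 had the shortest list of the 3. By the experiment numbers in the source names it stands next to its input, whereas replicates 2 and 3 stand far from theirs. The labels name no batch, and what these numbers stand for cannot be told apart from the replicate. No gene annotation of release 5 was used here, and regions are named by position.

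H2Av regions were sparser on the 2L interior than on the interiors of the other arms, but they were not narrower. Regions held 14.5%, 16.2% and 16.2% of its bases in replicates 1, 2 and 3, a mean of 15.6% ± 0.940 (SD, n = 3). The background arms had 17.3% ± 1.18. Within each list 2L was the lower, with a log2 ratio of -0.14 ± 0.013 in covered share (0.905-fold, below 0 in 3 of 3 replicates). Both sides of this ratio come from the same list, and why its spread between replicates was small was not tested.

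The lower share went with fewer regions. The 2L interior carried 28.0, 30.3 and 30.0 regions per Mb in the 3 replicates, against a background of 34.0 ± 1.65 (SD, n = 3). The log2 ratio was -0.21 ± 0.028, again below 0 in every replicate. The median width was 3875, 3766 and 3937 bp, a mean of 3859 ± 86.6 bp against 3786 ± 88.4 bp on the background arms (log2 ratio 0.028 ± 0.014, 1.02-fold). Against 3R the replicates did not share a direction, as replicate 3 had -0.0053.

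For the ratios of covered share, regions per Mb and median width, p was 0.25 in a sign-flip permutation test (exact, two-sided). With 3 values no smaller p can be had, so no ratio could be called and each is to be read against its SD. That SD covers the spread between libraries and not the spread between arms. Arm by arm, the covered share of 2L stood lowest against X (log2 ratio -0.28 ± 0.021) and 3R (-0.12 ± 0.013). Against 3L it was closer, at -0.020 ± 0.0053. X had 17.4%, 19.9% and 19.8%, above 2L in each list, and 3L had 14.7%, 16.5% and 16.3%. The values of 2L and 3L overlap across replicates.

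Long gaps between regions took up more of 2L than of any of the other interiors. Gaps of 50 kb or more held 67.1%, 63.5% and 63.8% of the 2L interior, against a background of 57.1% ± 1.96 (SD, n = 3). The log2 ratio was 0.18 ± 0.0058. It was above 0 in all 3 replicates against X, 3L and 3R singly as well, with means of 0.24, 0.16 and 0.15 (exact two-sided permutation p = 0.25 against the mean of the arms). There were 85, 88 and 88 such gaps on 2L, and their median length of 111 ± 4.19 kb was close to the 107 ± 1.68 kb of the background. Outside these gaps the order was turned round. Regions then covered 44.4% ± 0.240 of the remaining 2L sequence and 40.2% ± 0.913 of the remaining background (log2 ratio 0.14 ± 0.028, above 0 in 3 of 3 replicates). The limit of 50 kb was chosen after the lists were seen.

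Very wide regions made up a larger share of the regions of 2L, but were not in every replicate more numerous per length of arm than on X. Regions of at least 12 kb made up 8.07%, 9.38% and 8.95% of its regions, or 43, 54 and 51 regions, against 6.10% ± 1.04 on the background arms (SD, n = 3). The log2 ratio was 0.54 ± 0.17 and was above 0 in every replicate against each arm (exact two-sided permutation p = 0.25). It was largest against 3L, at 0.90 ± 0.19, and smaller against X, at 0.38 ± 0.23, and 3R, at 0.41 ± 0.12. X had 34, 52 and 54 such regions on 18.4 Mb, beside the 43, 54 and 51 of 2L on 19.0 Mb. Of those of 2L, 7, 8 and 7 lay between 10.25 and 10.5 Mb. The ratios without that stretch were not computed, so how far the direction against each arm rests on it was not tested. The limit of 12 kb was likewise set with the lists known.

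**Figure D1:**
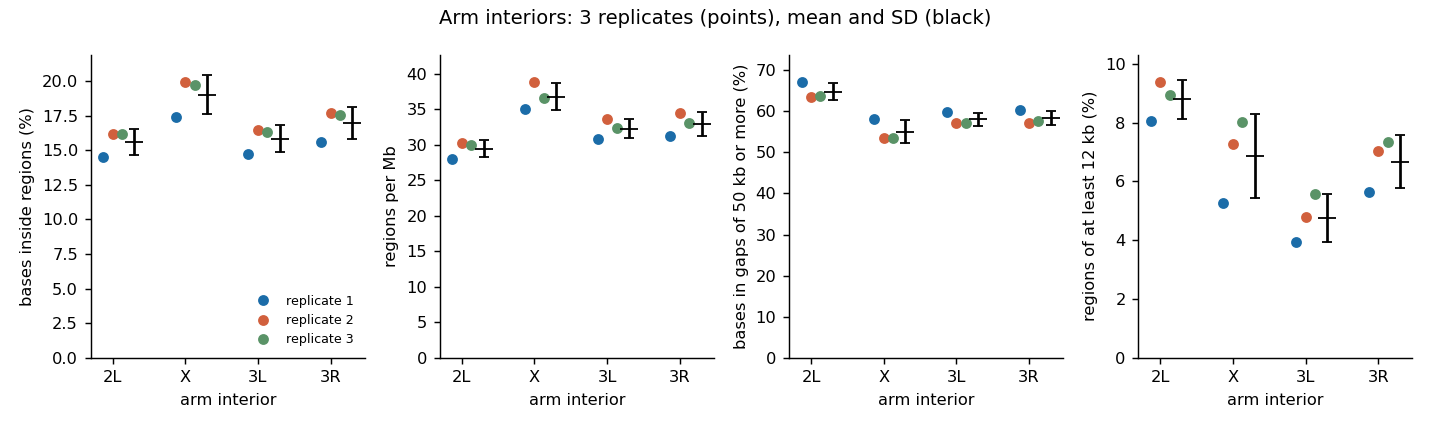
Covered share, regions per Mb, share of bases in gaps of 50 kb or more and share of regions of at least 12 kb (vertical axes) for the interiors of 2L, X, 3L and 3R. Points are the 3 replicates and black bars the mean ± SD; 2L has the fewest regions per Mb in each replicate, and the highest shares in long gaps, 63.5 to 67.1%, and of wide regions, 8.07 to 9.38%.

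The median score gave no clear difference between 2L and the mean of the other arms, though single arms differed. The median percentile of 2L regions was 50.7, 52.4 and 50.2, a mean of 51.1 ± 1.15, and that of the background was 54.2 ± 0.969 (SD, n = 3). The difference of -3.07 ± 1.97 points was below 0 in 3 of 3 replicates, but turned to 3.48 ± 1.11 when the highest-scoring 50% of each list was ranked alone. Arm by arm, in whole lists, the difference was -2.10 ± 2.16 points against X, -1.64 ± 1.74 against 3L and -5.48 ± 2.43 against 3R. It was below 0 in 3 of 3 replicates against 3L and 3R, and in 2 against X. Of the 2L regions, 10.9%, 11.8% and 11.4% were in the top 10% of their whole list. In the lowest 10% were 10.9%, 9.20% and 12.1% of them, against 3.26%, 4.34% and 4.31% on X. The mean was 10.3% ± 0.714 on 3L and 11.5% ± 0.735 on 3R. Within 2L wide regions had high scores, with a Spearman correlation between width and score of 0.799, 0.800 and 0.817 across the regions of a replicate, which are not independent.

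H2Av was spread unevenly along the 2L interior. In 76 windows of 250 kb, counted from the first base of the interior, the mean share over the replicates ran from 0 to 74.3%, with a median of 13.7%. The interquartile range was 7.34% to 22.0%. The 19 windows with the highest share held 50.8% of all covered bases and the 19 with the lowest held 3.79%. On X, 3L and 3R the top part of equal rank held 46.0 to 46.7% and the lowest 5.38 to 6.86%. The replicates traced the same profile: the SD over replicates had a median of 0.817 percentage points and a maximum of 4.27, against an SD of 12.7 over windows. Between pairs of replicates the Spearman correlation over the 76 windows was 0.989 to 0.994.

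Windows were called H2Av-rich when at least 30% of their bases lay inside regions in every replicate, and H2Av-poor when at most 5% did. On 2L 5 of 76 windows were rich (6.58%, 95% exact Clopper-Pearson interval 2.17 to 14.7), and 14 were poor (18.4%, interval 10.5 to 29.0). The background arms had 24 rich windows of 250 (9.6%) and 34 poor ones (13.6%). Both background shares lie inside the 2L intervals, which cover counting error only. By arm, rich windows made up 13.7% on X, 6.10% on 3L and 9.47% on 3R, and poor ones 9.59%, 18.3% and 12.6%, so 2L was much like 3L in both.

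The number of rich windows depended on where the windows began. Moving the windows by 0.5 of their length gave 10 rich and 12 poor windows. In windows taken every 10 kb, 10.6% of the positions on 2L were rich, within the 7.59 to 12.6% of X, 3L and 3R, and 18.2% were poor, above the 9.85 to 14.2% of the others. These positions overlap each other and were given no test. On the fixed grid a further 5 windows of 2L had a mean between 28.8% and 30.0% and fell just short of rich, and the rich window of lowest share had 33.6%. Just outside the poor limit stood the window from 18 to 18.25 Mb with 5.13% ± 0.717 (SD, n = 3).

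**Figure D2:**
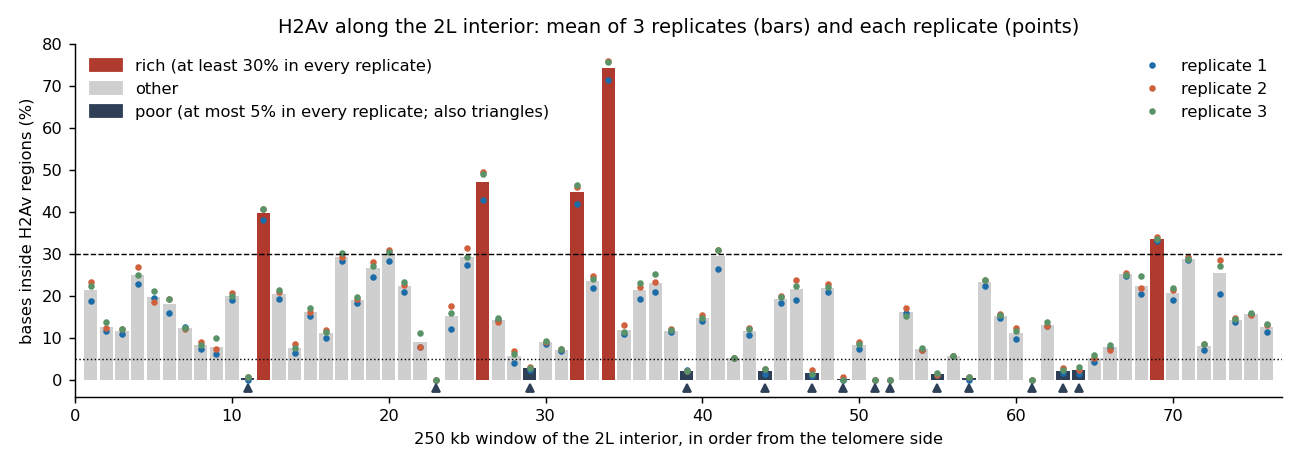
Share of bases inside H2Av regions (vertical axis, %) in the 76 windows of 250 kb of the 2L interior, in order from the telomere side (horizontal axis). Bars are means of 3 replicates, points the replicates, triangles the poor windows, and dashed and dotted lines the limits of 30% and 5%; the tallest bar, at 74.3%, stands far above the next, at 47.2%.

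The poor windows were crowded into a stretch past the middle of the interior, on the centromere side. Of the 14, 11 lay among the 26 windows from 11.5 to 18 Mb, which held 0 of the 5 rich windows. The other 3 poor windows and 4 rich ones were among the 38 windows from 2 to 11.5 Mb, and the last rich window was among the 12 from 18 to 21 Mb. In the stretch from 11.5 to 18 Mb the covered share was 8.47%, 9.59% and 9.35% in the 3 replicates. It was 19.2% ± 1.18 before that stretch and 18.3% ± 0.959 after it (SD, n = 3), so no value inside it reached those outside. Regions there numbered 18.7 ± 1.40 per Mb, against 35.7 ± 1.33 before and 33.0 ± 1.15 after. Their median width was 3664 ± 171 bp, against 3835 ± 92.6 and 4323 ± 154 bp, and their median score percentile 44.1 ± 3.33, against 53.4 ± 2.06 and 54.8 ± 3.16. Gaps of 50 kb or more took up 79.7% ± 2.07 of this stretch. Its borders were drawn after the profile was seen.

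A division with borders set by arm length alone was made on the same lists, so it is no independent check of the low stretch. The part of 2L with the lowest share ran from 11.51 to 16.26 Mb. It lay inside the stretch from 11.5 to 18 Mb, so its low share was already known. What the division adds is a comparison with the other arms. When each interior was divided into 4 equal parts, those of 2L had 17.2% ± 1.02, 21.2% ± 1.33, 8.96% ± 0.625 and 15.1% ± 0.808 of their bases inside regions, from the telomere side (SD, n = 3). The second part stood 2.37-fold above the third (log2 ratio 1.25 ± 0.027 over the replicates). On X, 3L and 3R the highest part of an interior stood 1.35-fold, 1.42-fold and 1.20-fold above the lowest. No part of those arms was below 12.9%, the first of 3L. The contrast along the arm was thus larger on 2L than on the other 3 in every replicate, with log2 ratios of 1.22 to 1.27 against at most 0.51 on any other arm. Choosing the highest and lowest part of each arm makes every such ratio positive, so only their sizes can be compared.

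**Figure D3:**
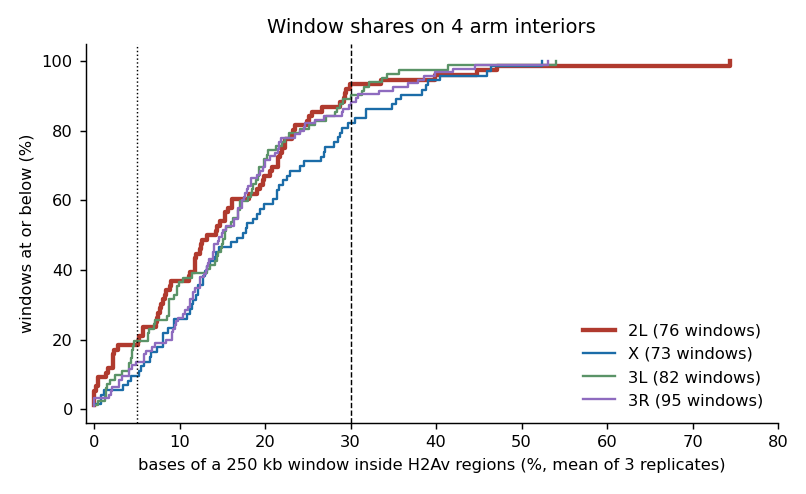
Percentage of 250 kb windows (vertical axis) whose mean share of bases inside H2Av regions is at or below the value on the horizontal axis, for the interiors of 2L, X, 3L and 3R. Of the 2L windows 18.4% lie at or below the poor limit in every replicate; the 2L line ends at 74.3% and the other arms end between 52.4% and 54.0%.

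The densest H2Av block of 2L was the window from 10.25 to 10.5 Mb. Its share was 71.4%, 76.0% and 75.6% in replicates 1, 2 and 3 (mean 74.3% ± 2.56, SD, n = 3). The highest windows of X, 3L and 3R had 52.4%, 54.0% and 53.1%, and all 3 replicates of the 2L window lay above them. The size of this lead depended on the grid. With windows moved by 0.5 of their length the highest on 2L had 56.8%. With a window every 10 kb the highest was 79.0% ± 2.30 on 2L, from 10200001 to 10450000, against 63.0% ± 3.79 on X, 56.5% ± 3.92 on 3L and 57.9% ± 1.87 on 3R (SD, n = 3). Over the 2L replicates these values were 76.3 to 80.6%, and over those of X 58.8 to 66.0%, so the groups did not overlap. The window was picked for its share, so no test was made.

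The share changed within a few steps of 50 kb at both flanks of this block. In steps of 50 kb the share was 2.00% ± 1.77 from 10.1 to 10.15 Mb and 6.60% ± 1.55 in the next step, then rose to 74.8% ± 2.65 from 10.2 to 10.25 Mb. It reached 89.1% ± 2.34 from 10.3 to 10.35 Mb, and was still 51.7% ± 4.00 from 10.45 to 10.5 Mb. It was 19.5% ± 0.893 in the following step and 0 in every replicate from 10.55 to 10.6 Mb. The drop from this window to its neighbour of 10.5 to 10.75 Mb, -62.5 ± 1.93 percentage points, was the largest step between adjacent windows of the 2L interior, and the rise into it, 50.8 ± 1.16 points, the next largest (SD, n = 3).

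The regions inside it were wide, close together and high in score. The window held 19, 18 and 19 regions in the 3 replicates, of which 7, 8 and 7 were at least 12 kb wide. Their median width was 6842, 11405 and 6861 bp, the widest were 20354, 21083 and 21433 bp, and the median gap was 2720, 1723 and 1815 bp. Replicate 2 stands apart in median width but not in share, and it had 1 region of 11237 bp where replicate 1 had 3 and replicate 3 had 2. The median score percentile was 82.1, 88.1 and 84.2, and 5, 8 and 6 regions were in the top 10% of their list. It was not uniform: about 200 kb from its start each replicate had regions of low rank, down to percentile 11.1, 3.17 and 11.4.

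**Figure D4:**
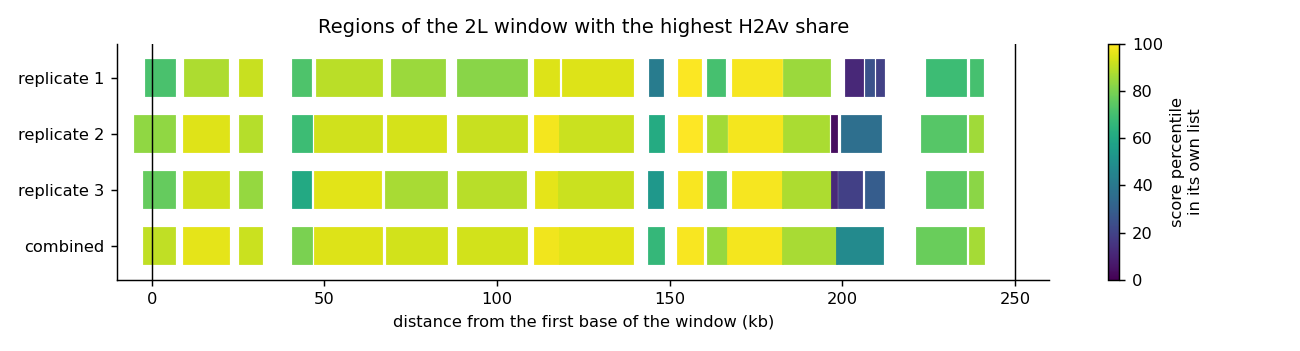
Regions of the 3 replicates and the combined list in the 2L window from 10.25 to 10.5 Mb, by distance from its first base (horizontal axis, kb), coloured by score percentile in their own list. The lists place 17 to 19 regions at nearly the same places, with breaks that 1 list has and another lacks and a patch of low percentiles near 200 kb.

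The other rich windows were less extreme. They lay from 8.25 to 8.5 Mb (47.2% ± 3.73), 9.75 to 10.0 Mb (44.8% ± 2.49), 4.75 to 5.0 Mb (39.9% ± 1.45) and 19.0 to 19.25 Mb (33.6% ± 0.465, SD, n = 3). None of the 5 adjoined another, so every rich block was a single window of 250 kb. The widest spread between replicates among them was in the window from 8.25 to 8.5 Mb, where replicate 1 had 42.9% and replicates 2 and 3 had 49.5% and 49.1%. The window from 4.75 to 5.0 Mb adjoined a poor one, from 4.5 to 4.75 Mb, with 0, 0.725% and 0.738%. The share rose across that border by 39.4 ± 1.03 points.

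Rich windows were rich mainly in the number of their regions. They held 16.6 ± 0.346 regions each, against 8.13 ± 0.330 in windows that were neither rich nor poor and 0.929 ± 0.214 in poor ones (SD, n = 3). The median width of their regions was 4984 ± 102 bp, against 3776 ± 58.1 and 2013 ± 55.8 bp. Over all 76 windows the Spearman correlation of the share was 0.929 with the number of regions, and 0.618 with their median width over the 72 windows that had regions in at least 1 replicate. Share, number and width come from the same regions, so this is a description. The densest window decided how the rich class compared in score with that of the other arms. With it, regions of rich 2L windows had a median percentile of 67.7 ± 1.69 against 60.8 ± 2.94 on the background arms, and without it 51.2 ± 5.02. The covered share of rich windows without it was still 41.4% ± 2.00 against 40.1% ± 2.16 (log2 ratio 0.046 ± 0.0099, above 0 in 3 of 3 replicates). The log2 ratio of median width was then 0.046, -0.13 and -0.19. The background arms kept their densest windows in these comparisons.

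Poor windows of 2L were poorer than those of the other arms, and what regions they had were small and weak. Their share was 1.14% ± 0.268, against 2.38% ± 0.242 in poor background windows (SD, n = 3). The 14 windows held 10, 16 and 13 regions in the replicates, with a median score percentile of 16.7, 16.5 and 15.6, against 38.2, 41.8 and 39.3 for the 54, 59 and 60 regions of the 34 poor background windows. The groups did not overlap. Their median width was 2013 ± 55.8 bp against 2974 ± 127 bp. The number of regions behind the 2L values is small. In the top 10% of a list were 0 of them, as in the poor windows of 3L and 3R, and 0%, 5.08% and 1.67% over all poor background windows. Windows were classed by covered share, which depends on width, so no test was made.

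The windows of lowest share were from 7.5 to 7.75 Mb, 14.5 to 14.75 Mb, 14.75 to 15.0 Mb and 17.0 to 17.25 Mb, with 0 in every replicate, and from 14.0 to 14.25 Mb, where replicate 2 alone had 0.722%. The poor windows formed 12 blocks, of which 2 had 2 windows: 14.5 to 15.0 Mb, with 0 regions in each replicate, and 17.5 to 18 Mb, with 2.28% ± 0.582 (SD, n = 3). The stretch without a region in any replicate that contains the first of these ran for 637 kb, from 14365975 to 15003418. It was followed in length by 455 kb from 16927780 and 450 kb from 15773762, so all 3 lay between 11.5 and 18 Mb. How much of them reads could be aligned to was not tested. Of the 28 combined regions in poor windows, 7 were in all 3 replicates (25%, 95% exact Clopper-Pearson interval 10.7 to 44.9). The share was 76.5% in rich windows and 67.7% in windows that were neither. Poor windows were classed by low cover in these same replicate lists, so few replicate regions were there to be overlapped. The lower share follows in part from the class and is no separate result on reproducibility. Combined regions in poor windows were also narrower, with a median of 1919 bp against 5597 and 3733 bp. The highest of the 7 were at 9164662 to 9168025, with percentiles of 61.9, 61.2 and 57.9, and at 12997622 to 13001888, with 59.9, 63.8 and 54.9.

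Neighbouring windows resembled each other only weakly. The Spearman correlation of the mean share was 0.212 between windows next to each other (75 pairs), 0.157 at 500 kb, -0.0090 at 1000 kb and 0.161 at 2000 kb. At the distance of 1 window it was 0.176 on X, 0.176 on 3L and 0.101 on 3R. The windows of a pair can share a region at their border, and the values carry no p.

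Most gaps between regions were short, and a minority of long ones held most of the sequence. The median gap between neighbours was 4528, 4375 and 4562 bp in replicates 1, 2 and 3, whereas the mean gap was 30368, 27559 and 27855 bp. Gaps under 1 kb made up 19.4% ± 0.249 of all gaps and those of 1 to 5 kb 33.8% ± 0.594 (SD, n = 3). Gaps of 5 to 20 kb made up 20.3% ± 0.804, those of 20 to 50 kb 10.8% ± 0.485 and those of 50 kb or more 15.6% ± 0.351. The median gap was not resolved from that of the background. Its log2 ratio was -0.065 ± 0.10, with -0.17, 0.026 and -0.048 in the replicates (exact two-sided permutation p = 0.5).

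Joined across gaps under 50 kb, the regions of 2L fell into 86, 89 and 89 groups, with a median of 4 regions and 45.5 ± 1.70 kb (SD, n = 3). In the combined list the longest group ran for 561 kb from 7983780 to 8545017 and held 40 regions. The replicates had 40, 39 and 43 regions in it and covered 40.2% ± 2.79. The next was 378 kb long, from 10142577 to 10521067, with 26 combined regions and 62.7% ± 2.42 covered, and contains the densest window. Another, from 6421330 to 6799364, was also 378 kb long but covered by only 28.6% ± 1.51. In all, 12 of the 84 combined groups were at least 200 kb long. They held 40.8% of the regions on 19.6% of the interior.

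Regions that stood alone, with 50 kb or more to both neighbours, numbered 15, 20 and 20. That is 3.27% ± 0.391 of the 2L regions, against 1.94% ± 0.331 on the background arms (SD, n = 3). The log2 ratio was 0.76 ± 0.41, above 0 in 3 of 3 replicates (exact two-sided permutation p = 0.25), and rests on few regions. They were not uniformly weak. Their median percentile was 65.3, 42.6 and 43.7, against 50.4, 52.4 and 51.0 for regions in groups. Replicate 1 lies above and replicates 2 and 3 below, so no direction can be given.

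Among the single regions of 2L, the strongest were of very different widths. Of the combined regions in all 3 replicates, the 10 with the highest scores were 4481 to 20119 bp wide. The first was at 10402575 to 10409553 (6979 bp), inside the densest window, at percentile 99.5, 99.6 and 99.1 in replicates 1, 2 and 3. The next, at 11986614 to 12003536, was 16923 bp wide and at 98.1, 98.9 and 98.6. The third, at 3169069 to 3174662, was only 5594 bp wide and at 99.4, 99.2 and 99.5. These percentiles describe regions picked for their score and are no test. Of the 10, 3 lay from 10.25 to 10.5 Mb: the first, 10417051 to 10432711 and 10361057 to 10368033.

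The 5 others of these 10 were 6954516 to 6974634, 11117746 to 11132180, 8380193 to 8386469, 2570746 to 2582407 and 10855511 to 10859991. Their lowest percentile in any replicate was 95.6 or above. The 5 regions with the highest minimum over the replicates were those beginning at 3169069, 10402575, 6954516, 10417051 and 11986614, with minima of 99.2, 99.1, 98.4, 98.4 and 98.1. In the first, replicates 1 and 3 ended at 3173671 and 3173652 and replicate 2 at 3174639, with widths of 4549, 4497 and 5544 bp.

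The 5 widest combined regions were broken into 2 to 4 regions in the replicates, with 1 exception. The widest, 4947998 to 4983502 (35505 bp), overlapped 2, 3 and 3 regions of replicates 1, 2 and 3, which covered 98.4%, 97.2% and 97.1% of it. It was at percentile 96.3 of the combined scores. The next, 12029238 to 12058336 (29099 bp), overlapped 4, 3 and 4 replicate regions and stood lower, at percentile 73.2. The others were 17476385 to 17504903 (28519 bp), 9886628 to 9914363 (27736 bp) and 4438989 to 4466641 (27653 bp). For the region at 17476385 replicate 3 had a single region of 27911 bp where replicates 1 and 2 had 3 regions each. The region at 9886628 overlapped 3, 2 and 2 replicate regions and that at 4438989 overlapped 3, 2 and 3.

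The replicate lists overlapped closely on 2L. Bases in both lists of a pair, divided by bases in at least 1 of them (the Jaccard index), came to 0.830 in replicates 1 and 2, 0.830 in 1 and 3, and 0.857 in 2 and 3. The mean of 0.839 ± 0.016 lay beside 0.808 ± 0.021 on X, 0.833 ± 0.022 on 3L and 0.835 ± 0.020 on 3R (SD over 3 pairs, which share lists). In all 2.59 Mb were in regions of every replicate, 76.8% of the 3.37 Mb in any. No replicate had a region over 82.3% of the interior. Scores of shared regions were ranked alike, with a Spearman correlation of 0.892, 0.884 and 0.936 over 515, 509 and 527 shared regions. The mean of 0.904 ± 0.028 stood beside 0.856 ± 0.012 on X, 0.887 ± 0.022 on 3L and 0.876 ± 0.036 on 3R.

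Of the 655 combined regions of 2L, 439 overlapped a region in all 3 replicates (67.0%, with a Clopper-Pearson interval of 63.3 to 70.6 at 95%), against 64% of the 2532 on the background arms. A further 55 were in 2 replicates, 66 in 1 and 95 in none (14.5%, interval 11.9 to 17.4, against 16% on the background arms). Both shares were near the background. The 439 held 89.2% of the combined length on 2L. Of the 66 in 1 replicate, 7 were in replicate 1, 29 in replicate 2 and 30 in replicate 3, and of the 55 in 2, 40 were in replicates 2 and 3. The other arms were alike in this. Replicate 1 alone had 9 of 93 on X, 12 of 83 on 3L and 9 of 115 on 3R. Replicates 2 and 3 together had 61 of 80, 44 of 58 and 58 of 77.

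Support followed width almost stepwise. Overlap needed only 1 shared base, which a wider region meets more easily, and the combined list was made for the same replicate set. Width and support are thus tied by construction, and this is a description. Of the 68 regions of at most 1300 bp, 0 were in all 3 replicates (exact interval up to 5.28%), and of the 95 above that and up to 2000 bp, 1 was. The shortest region in each replicate list of the 2L interior was 1308, 1309 and 1306 bp wide, so the narrowest combined regions have no counterpart of equal width. The share was 73.5% of 181 regions up to 4000 bp, 96.7% of 183 up to 8000 bp, and 100% of the 62 up to 12000 bp and of the 66 wider ones, each class starting where the last ended. The background arms had 70.0% and 97.3% in the first and second of these classes, within the 2L intervals.

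**Figure D5:**
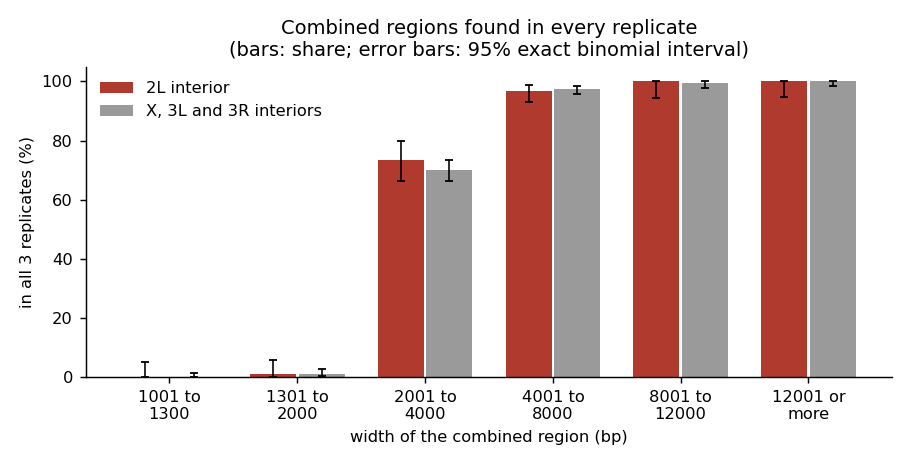
Share of combined regions that overlap a region in all 3 replicates (vertical axis, %), by width of the combined region (horizontal axis, bp), for the 2L interior and for X, 3L and 3R. Error bars are 95% exact Clopper-Pearson intervals; the share goes from 0 of 68 in the narrowest class to all 66 in the widest on 2L, beside like values on the background arms.

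Edges differed little between the lists. For the 337 regions that overlapped a single region in each replicate, the 3 starts spanned a median of 258 bp (interquartile range 137 to 507) and the 3 ends 249 bp (133 to 515). The starts lay within 500.0 bp of each other in 74.5% and over 2000 bp apart in 3.56%. The width of such a region varied by a median CV of 5.99% over the replicates. On the background arms the spans were 283 and 284 bp and the CV 6.70% over 1206 regions. Of the 439 regions in all 3 replicates, 76.8% matched a single region in each list, 18 (4.10%) were broken into several in each list, and 84 were single in some lists and broken in others.

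The rank of a region moved by a median of 11.4 percentile points between the highest and the lowest replicate, and by up to 51.9. The largest change was at 10245257 to 10247912, at percentile 31.5, 83.4 and 37.4. There replicate 2 had 1 region of 11572 bp, where replicates 1 and 3 had separate ones of 2272 and 2303 bp. At 18942313 to 18944876 the percentiles were 22.4, 49.3 and 65.6, and replicate 3 had joined the region into one of 15703 bp. At 2953604 to 2957238, 13211784 to 13216103 and 6795155 to 6799364 replicate 1 was low, at 0.568, 3.70 and 6.25, and replicates 2 and 3 were between 35.2 and 43.2. In these 3 the region of replicate 1 was the narrowest, 1841, 2045 and 2006 bp wide.

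Combined regions in no replicate were narrow, with a median of 1211 bp, and 53 of the 95 were at most 1300 bp wide. Their scores were mostly low in the combined list. One was an exception in score, at 20160582 to 20161710 (1129 bp), with percentile 99.1 of the combined list. The next was 8013554 to 8014640 (1087 bp), at 72.5, followed by 15717618 to 15718752 at 54.8, 10862353 to 10863383 at 44.0 and 13409924 to 13410926 at 38.7. Of the 50 highest-scoring combined regions of the 2L interior, 49 were in all 3 replicates and 1 in none, beside 48 and 2 on X, 50 and 0 on 3L, and 49 and 1 on 3R.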

How the data were processed

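H2Av ChIP-seq regions of 3 ChIP libraries were used, each called against an input library per the labels (input 3, 1 and 2 for ChIP 1, 2 and 3). Per the submitters' processing notes, the aligner was Bowtie 0.12.7. Each ChIP library, and the replicate set, has a GFF list of enriched regions deposited by the authors, with positions on FlyBase release 5 per the file headers. The sources used here do not give the caller or its thresholds. The score of a region is the authors' value, of unstated scale, and was used only as a percentile rank within its list. Positions are as the authors deposited them, counted from 1.

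Regions were assigned by midpoint and covered bases counted inside the borders. Gaps were taken between neighbouring regions of the interior. Overlap needed 1 shared base. Values were computed per replicate, and 2L was set against the mean of X, 3L and 3R within each list, with a sign-flip permutation test (exact, two-sided). Intervals are 95% exact Clopper-Pearson and cover counting error only. Windows began at the first base of the interior, and the last 11544 bp were in no window. Named regions were the 10 highest-scoring in all 3 replicates, the 5 highest-scoring in none, the 5 widest, the 5 with the highest minimum percentile and the 5 whose percentiles differed most, with the 5 highest and 5 lowest windows and blocks of 2 or more. The members, windows, limits and rules were chosen with earlier results of these data known. Interval functions were tested on simulated data. The tools were scipy 1.17.1, pandas 2.3.3, numpy 2.4.6 and, for figures, matplotlib 3.10.9, in Python 3.11.15. Alternatives are given in the closing section. A gene table of release 6 was not used, since its positions differ.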

Additional observations from a re-analysis of the deposited data

How the results depend on the processing

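Of 70 settings for the 7 comparisons of 2L with other arms, 67 kept the direction of the mean. Leaving out 1 replicate could not reverse a ratio of 1 sign throughout, and the permutation test cannot pass a threshold with 3 values, so this count is no measure of stability. The log2 ratio ran from -0.28 to -0.020 for covered share, from -0.32 to -0.13 for regions per Mb and from 0.0077 to 0.040 for median width. It ran from 0.13 to 0.24 for gaps of 50 kb or more and from 0.38 to 0.90 for regions of at least 12 kb, both results added after the data were seen. Median spacing changed sign to 0.040 with the highest-scoring 50% and to 0.0075 with 1 Mb left out at either end, and the median score percentile to 3.48 with the highest-scoring 50%. The cause was not tested. Rich windows numbered 3 and poor ones 22 with the highest-scoring 50%, where fewer regions enter by construction, and 10 windows were rich after moving them by 0.5 of their length. The share of combined regions in every replicate was 58.2% under an overlap of at least 50% on both sides, which can only lower it. It was 86.4% with lists of 4403 regions each, where the combined list loses its lowest-scoring regions. With 1 replicate left out it was 68.1 to 73.1%, and asking for overlap in fewer lists can only keep or raise it. The Jaccard index was 0.830 to 0.857 with 1 replicate left out, highest without replicate 1. The densest window had 69.2% with the highest-scoring 50% and 56.8% after the move. No paired analysis was possible because lists exist for ChIP libraries alone, and an input has another number than the ChIP library it served. Depth is unknown, so its limit on any single region cannot be given.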
